A study of Mus musculus with 5 samples.

Results

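The Wnt and β-catenin pathway genes described here were chosen by symbol: Wnt9a, the co-receptor genes Lrp5 and Lrp6, the ubiquitin ligase gene Znrf3, the destruction complex genes Apc, Axin1, Axin2 and Gsk3b, and the nuclear factor genes Tcf7l1 and Tcf7l2. Of these 10 genes, 9 had an entry among the 12934 genes of the count table, and all 9 were among the 12483 genes tested. Tcf7l1 had no entry under its identifier and was not analysed here.

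RNA was sequenced from EpH4 cells, a mouse mammary epithelial line derived from a BALB/c gland, which expressed Cas9 and carried either a control sgRNA (sgControl, 3 libraries) or an sgRNA against Mef2d (sgMef2d, 2 libraries), both delivered by lentivirus. Both groups therefore share Cas9 and the drug selections, the cells were selected as stable clones, and the sources used here do not state how many clones each group holds or whether the sgMef2d libraries carry different sgRNAs. The libraries were poly(A)-selected and marked for strand, and the question was which gene expression programs depend on MEF2D.

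The library totals lay between 13601145 and 20498563 counts, and every pair of libraries differed by more than counting error alone. One control library stood apart: the chi-square over its degrees of freedom was 10.3 and 13.3 for sgControl replicate 1 set against replicates 2 and 3, as much as libraries of different groups differed (10.6 to 12.7), and 1.99 between sgControl replicates 2 and 3 and 2.03 between the sgMef2d replicates. Mef2d itself was at 64.3, 76.9 and 71.5 CPM (counts per library size, in the usual CPM unit and scaled between libraries) in sgControl and at 64.2 and 65.8 CPM in sgMef2d, values being given here and below in the order of the replicate numbers, and its log2 fold change of -0.12 did not pass the test (adjusted p = 0.400), so the RNA level does not check the labels. Without sgControl replicate 1 the value was -0.19 (adjusted p = 0.00550), with the length trend removed as well it was -0.17 (adjusted p = 0.0224), and without sgControl replicate 2 it was -0.06 (adjusted p = 0.770). Of the epithelial markers Epcam, Cdh1, Krt8, Krt18 and Krt19, all but Krt19 were listed, with a summed level of 2134 to 2223 CPM in sgControl and 2071 to 2149 CPM in sgMef2d. Within that list Krt18 was lower in sgMef2d (685 to 724 against 578 to 599.7 CPM) and Epcam was higher (252 to 255 against 275 to 277 CPM). The 5 endothelial and the 4 adipocyte markers had no entry, and 2 of the 7 immune markers were listed, with a summed level of 3.01 to 4.12 CPM. Of the 6 basal markers 4 were listed (Krt5, Krt14, Trp63 and Acta2), and their summed level was 483 to 492 CPM in sgControl and 944 to 1001 CPM in sgMef2d. Krt14 made up most of this sum (436 to 443 against 872 to 925 CPM). Krt5 (0 to 0.146 against 14.2 to 15.3 CPM) and Trp63 (26.7 to 32.1 against 47.0 to 49.8 CPM) were also higher in sgMef2d. Acta2 went the other way, with 16.9 to 19.9 CPM in sgControl and 9.57 to 11.5 CPM in sgMef2d. Of the 7 fibroblast markers, 6 were listed, with a summed level of 643 to 770 CPM in sgControl and 607 to 647 CPM in sgMef2d. Within that list Col1a2 (414 to 440 against 286 to 295 CPM) and Pdgfra (31.4 to 35.3 against 27.2 to 29.4 CPM) were lower in sgMef2d, while Col1a1 (125 to 199.5 against 203 to 234 CPM), Col3a1 (1.63 to 2.13 against 4.70 to 5.34 CPM) and Dcn (0.924 to 1.90 against 3.29 to 3.46 CPM) were higher. The part of these shifts in the results below was not tested, and in bulk RNA fewer cells of a type and less RNA per cell cannot be told apart.

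Wnt proteins are secreted ligands that bind Frizzled receptors together with the co-receptors LRP5 or LRP6. Without ligand, a destruction complex built on AXIN and APC lets GSK3 phosphorylate β-catenin, which is then degraded. With ligand the complex is held back, β-catenin accumulates and joins TCF/LEF factors on DNA, and feedback genes such as Axin2 and Znrf3 are switched on. In the mammary gland the pathway is known for its roles in duct growth and in basal progenitor cells.

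Levels of different genes were compared per kb of annotated exonic length, since long transcripts give more reads. Axin1, the scaffold of the destruction complex, was the most abundant member, with 35.2 ± 2.18 CPM per kb (SD, n = 3) in sgControl, higher than 88.4% of all genes tested. Lrp5 (12.9 ± 1.81), Gsk3b (10.6 ± 1.02), Lrp6 (9.99 ± 0.887) and Apc (8.19 ± 1.28 CPM per kb, SD, n = 3) followed. The ranges of neighbours among these 4 overlapped in sgControl, but within each of the 5 libraries the order was Lrp5, Gsk3b, Lrp6 and Apc.

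Wnt9a (4.67 ± 0.249) and Znrf3 (4.25 ± 0.183 CPM per kb, SD, n = 3) came next and did not overlap in sgControl. Their order was the other way round in sgMef2d, with 4.27 ± 0.513 and 4.47 ± 0.374 CPM per kb (SD, n = 2), where the libraries overlapped. Tcf7l2, a β-catenin partner on DNA, had 1.77 ± 0.205 CPM per kb (SD, n = 3), and Axin2 had 0.120 ± 0.0040 CPM per kb (SD, n = 3), higher than 1.32% of all genes tested. Apart from Wnt9a and Znrf3, the members had the same order in both groups.

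**Figure D1:**
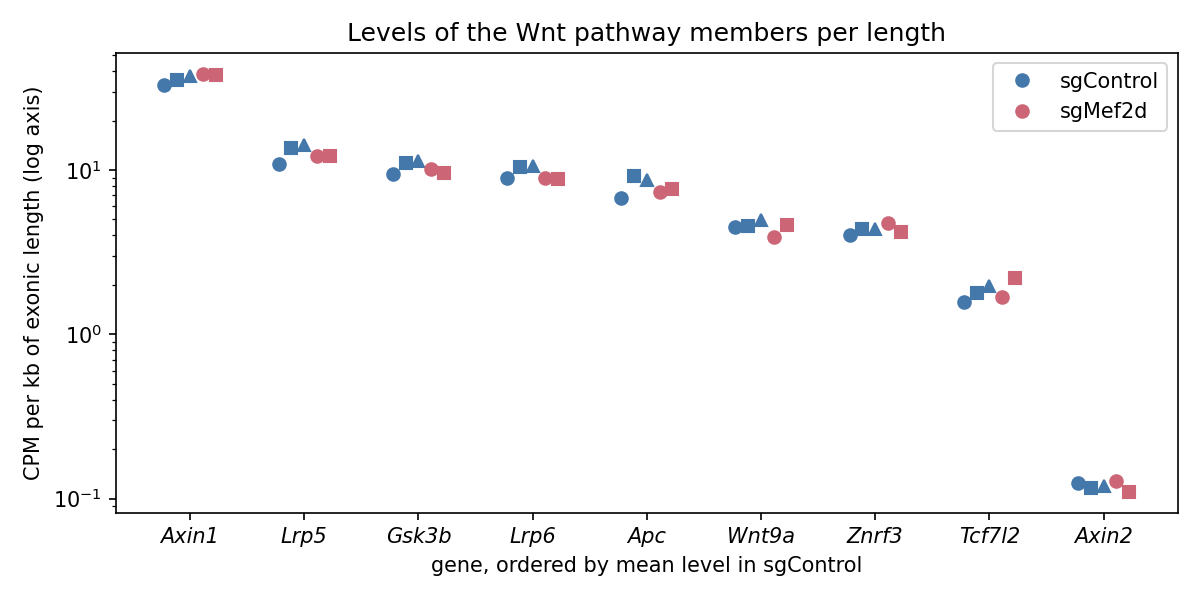
Level of each member in CPM per kb of annotated exonic length (log axis), with 1 point for each library (sgControl blue, sgMef2d red; circle, square and triangle for replicates 1, 2 and 3). Axin1 lies near 35 and Axin2 near 0.12 CPM per kb in sgControl, and the other members lie between them.

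Between the groups, 0 of the 9 members passed the threshold of an adjusted p below 0.05 in edgeR's quasi-likelihood test, which 7.95% of all genes tested passed (3.67% higher and 4.28% lower in sgMef2d). At an unadjusted p below 0.05 the count was also 0 of 9, where 23.2% of all genes passed, and DESeq2 and limma-voom likewise called 0 of the 9 at the adjusted threshold. The fitted log2 fold changes (sgMef2d over sgControl) lay between -0.17 for Lrp6 and 0.14 for Tcf7l2, with 6 members lower and 3 higher in sgMef2d and a median of -0.08, beside 0.0031 over all genes, -0.09 over genes at least as long as Lrp5, and -0.07 over the longest of 5 equal groups of genes by length, which holds 6 of the members. The groups did not overlap in Lrp6, which was lower in sgMef2d as were 20.5% of all genes without overlap, and in Axin1, which was higher as were 20.6%, making 41.1% of all genes together. A p that misses the threshold does not show that a gene was equal in both groups, so the 95% interval of each fold change is given below.

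**Figure D2:**
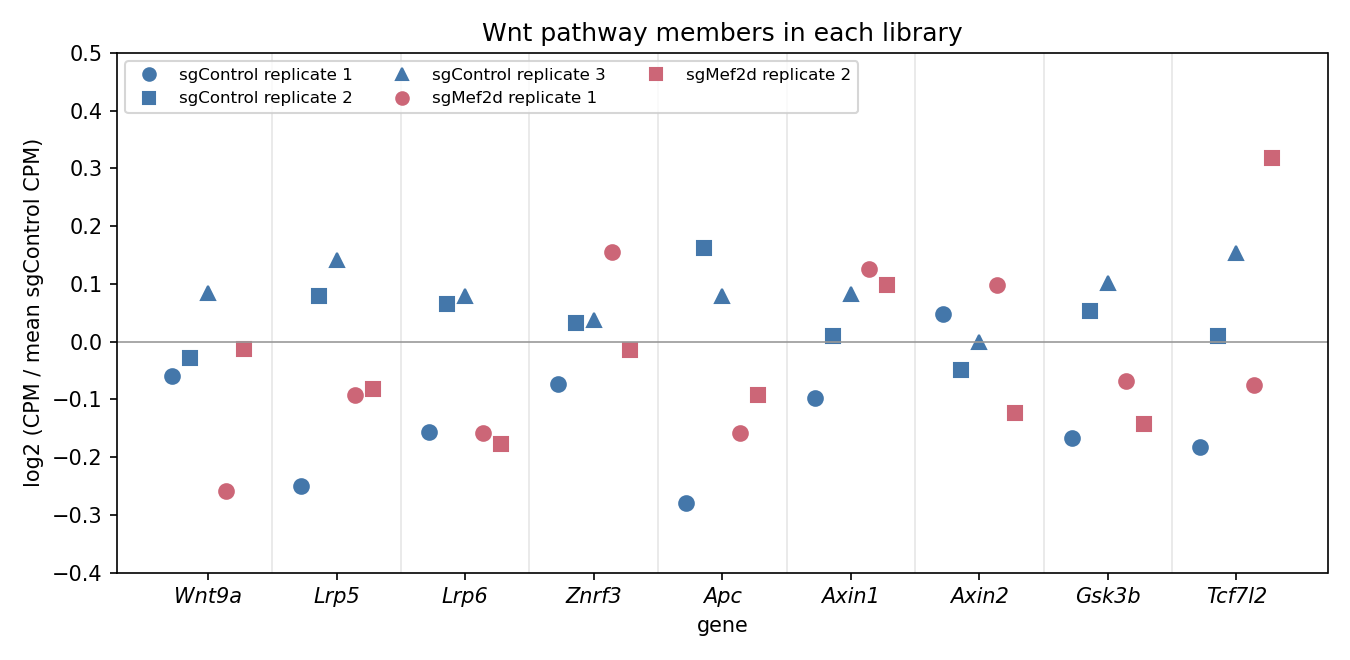
CPM of each member in each library, as log2 of its ratio to the sgControl mean (sgControl blue, sgMef2d red; circle, square and triangle for replicates 1, 2 and 3). The groups are apart only in Lrp6 and Axin1, and sgControl replicate 1 is the lowest sgControl library in all members but Axin2.

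Wnt9a (ENSMUSG00000000126.11, chromosome 11 of GRCm38, 59306928 to 59333552), a secreted Wnt ligand, was measured at 14.9, 15.2 and 16.5 CPM in sgControl and at 13.0 and 15.4 CPM in sgMef2d. The sgMef2d libraries lay on either side of sgControl replicates 1 and 2, and the groups overlapped. Its log2 fold change of -0.13 (SE 0.113, adjusted p = 0.540, here and below by the quasi-likelihood test of edgeR) had an interval from -0.38 to 0.12, that is from 0.770 to 1.08 as a fold.

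Lrp5 (ENSMUSG00000024913.16, chromosome 19, 3584828 to 3686564), a single-pass Wnt co-receptor, had 106, 133 and 139 CPM in sgControl and 118 and 119 CPM in sgMef2d. Both sgMef2d libraries fell between sgControl replicate 1 and the other two. On the log2 scale Lrp5 differed by -0.08 (SE 0.098, adjusted p = 0.663), with an interval from -0.30 to 0.13.

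Lrp6 (ENSMUSG00000030201.15, chromosome 6, 134446476 to 134566965), the closely related co-receptor, had 122.7, 143 and 144 CPM in sgControl and 122.5 and 121 CPM in sgMef2d. The groups did not overlap, although sgControl replicate 1 and sgMef2d replicate 1 were nearly level. Lrp6 had the smallest p of the members (unadjusted p = 0.0510, adjusted p = 0.217 from the quasi-likelihood test), with a log2 fold change of -0.17 (SE 0.076) and an interval from -0.33 to 0.0008. Within each library, the log2 ratio of Lrp6 to Lrp5 counts was 0.21, 0.10 and 0.06 in sgControl and 0.05 and 0.02 in sgMef2d. This ratio was lower in both sgMef2d libraries by 0.09 on average, and the exact two-sided permutation test gave p = 0.2, the smallest value that 3 against 2 libraries allow.

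Znrf3 (ENSMUSG00000041961.14, chromosome 11, 5276324 to 5444847) encodes a membrane ubiquitin ligase that removes Frizzled receptors from the cell surface and is itself a feedback target of the pathway. Its level was 31.9, 34.3 and 34.4 CPM in sgControl and 37.4 and 33.2 CPM in sgMef2d. Only sgMef2d replicate 1 lay above all sgControl libraries. Its log2 fold change of 0.08 (SE 0.083, adjusted p = 0.629) had an interval from -0.11 to 0.26.

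Apc (ENSMUSG00000005871.15, chromosome 18, 34220924 to 34322552), which holds β-catenin in the destruction complex, had 109, 148 and 140 CPM in sgControl and 118 and 124 CPM in sgMef2d. As for Lrp5, both sgMef2d libraries lay between sgControl replicate 1 and the other two. The fitted difference was -0.12 on the log2 scale (SE 0.107, adjusted p = 0.551), with an interval from -0.36 to 0.11.

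Axin1 (ENSMUSG00000024182.16, chromosome 17, 26138688 to 26195811), the constitutive scaffold, had 126, 136 and 143 CPM in sgControl and 147 and 144 CPM in sgMef2d. Both sgMef2d libraries were above all sgControl libraries. This log2 fold change of 0.11 (SE 0.065, adjusted p = 0.330) had an interval from -0.03 to 0.26.

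Axin2 (ENSMUSG00000000142.15, chromosome 11, 108920349 to 108950783) encodes the AXIN protein that the pathway itself induces, and its RNA is widely read as a sign of β-catenin activity. It had 14, 9 and 9 counts in sgControl and 12 and 9 counts in sgMef2d, above the 3 counts taken as the limit of detection. These counts correspond to 0.683, 0.638 and 0.660 CPM and to 0.706 and 0.606 CPM, and the groups overlapped. With a log2 fold change of -0.0078 (SE 0.412, adjusted p = 0.995), the interval ran from a fold of 0.531 to 1.86, and a change within these bounds was not detectable at this depth. The log2 ratio of Axin2 to Axin1 counts within a library averaged -7.61 ± 0.110 (SD, n = 3) in sgControl and -7.73 ± 0.123 (SD, n = 2) in sgMef2d (exact two-sided permutation p = 0.6). With a pseudocount of 2 in place of 0.5 the groups did not overlap and p was 0.2, the smallest that the design allows.

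The sequence before the start of Axin2 is shown because Axin2 is the classical target gene among the members. RefSeq promoter windows on GRCm38.p6 (250 bases before to 50 bases after each start) were searched on both strands for the TCF/LEF motif, written CTTTGAA or CTTTGAT, and for the MEF2 motif. Of the members, Wnt9a, Axin2, Gsk3b and Tcf7l2 had windows, 5 in all, of which 0 held either motif. Over 32851 windows of the same length, 8.65% held the TCF/LEF motif and 3.19% the MEF2 motif. The bases upstream of the start, 5′ to 3′ and with no letters in capitals because no motif was matched, are as follows.
Axin2, chr11:108920099-108920348, plus strand: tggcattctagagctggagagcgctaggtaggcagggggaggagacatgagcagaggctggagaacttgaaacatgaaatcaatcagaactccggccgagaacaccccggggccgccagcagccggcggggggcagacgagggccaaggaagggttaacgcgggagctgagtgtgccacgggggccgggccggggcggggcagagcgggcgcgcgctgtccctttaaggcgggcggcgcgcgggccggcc

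Gsk3b (ENSMUSG00000022812.14, chromosome 16, 38089001 to 38246084), the kinase that marks β-catenin for degradation, had 93.0, 108 and 112 CPM in sgControl and 99.6 and 94.5 CPM in sgMef2d. Both sgMef2d libraries again lay between sgControl replicate 1 and the other two. Gsk3b thus had a log2 fold change of -0.10 (SE 0.081, adjusted p = 0.4996), with an interval from -0.28 to 0.08.

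Tcf7l2 (ENSMUSG00000024985.19, chromosome 19, 55741820 to 55933654) had 13.7, 15.7 and 17.3 CPM in sgControl and 14.8 and 19.4 CPM in sgMef2d. The sgMef2d libraries differed from each other by more than the means of the groups did. The fitted log2 difference of 0.14 (SE 0.138, adjusted p = 0.593) had an interval from -0.16 to 0.44.

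The annotated transcripts of the members share at most 0.72% of their 50-base words with other genes (Lrp6). How reads were assigned between similar sequences was not tested. The genes whose profile over the 5 libraries was nearest to that of Lrp6, among 3131 genes within 1 log2 CPM of its level, were Fndc3b, Asap1 and Uhrf1bp1l, with root mean square distances of 0.011, 0.014 and 0.014 in log2 CPM.

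The result for 4 members rested on a single library. In 8 of the 9 members, sgControl replicate 1 was the lowest of the sgControl libraries, as it was in 39.5% of all genes tested and in 71.5% of the 1287 genes at least as long as Lrp5. Without this library, Lrp5 (log2 fold change -0.20, adjusted p = 3.55e-04), Lrp6 (-0.24, adjusted p = 1.13e-05), Apc (-0.25, adjusted p = 7.34e-06) and Gsk3b (-0.18, adjusted p = 0.00246) passed the adjusted threshold of edgeR, all lower in sgMef2d. In this comparison 29.4% of all genes tested passed, and 14.8% of all genes tested passed as lower. Wnt9a (-0.17), Znrf3 (0.04), Axin1 (0.07) and Tcf7l2 (0.04) did not pass, and Axin2 did not reach the expression filter. Leaving out sgControl replicate 2 called 0 of the members, beside 603 of the 12468 genes tested there. Leaving out sgControl replicate 3 also called 0, beside 812 of 12466.

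These 4 members have long transcripts, and the level of long transcripts differed between libraries. Their annotated exonic lengths are 9738 bases for Lrp5, 9831 for Gsk3b, 13672 for Lrp6 and 16116 for Apc, longer than between 89.7% and 98.1% of all genes tested. Relative to the mean of sgControl replicates 2 and 3, the longest of 5 equal groups of genes by length had a median log2 level of -0.10 in sgControl replicate 1 and of -0.10 in the sgMef2d libraries, and the shortest of 0.13 and 0.11. On the same scale Lrp5, Gsk3b, Lrp6 and Apc had values of -0.36, -0.24, -0.23 and -0.40 in sgControl replicate 1 and of -0.20, -0.18, -0.24 and -0.25 in the sgMef2d libraries.

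Once the trend of each library with exonic length was taken out, without sgControl replicate 1 (a combination chosen after seeing the data), 0 of the members passed, beside 23.5% of all genes (10.7% lower). Lrp5 then differed by -0.10 on the log2 scale (adjusted p = 0.0979), Lrp6 by -0.10 (adjusted p = 0.110), Apc by -0.08 (adjusted p = 0.200) and Gsk3b by -0.08 (adjusted p = 0.221), all in edgeR's test. Without sgControl replicate 1 the length trend runs along the groups, from 0.11 in the shortest to -0.10 in the longest genes. Its removal thus also takes out any sgMef2d difference that follows length. Such a difference and a trend of the libraries cannot be told apart here. With all 5 libraries and the trend removed, the values of Lrp5, Lrp6, Apc and Gsk3b were -0.02, -0.07, -0.0081 and -0.04. Znrf3 and Tcf7l2, which also belong to the longest group, were not lower in sgMef2d in any of these settings.

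**Figure D3:**
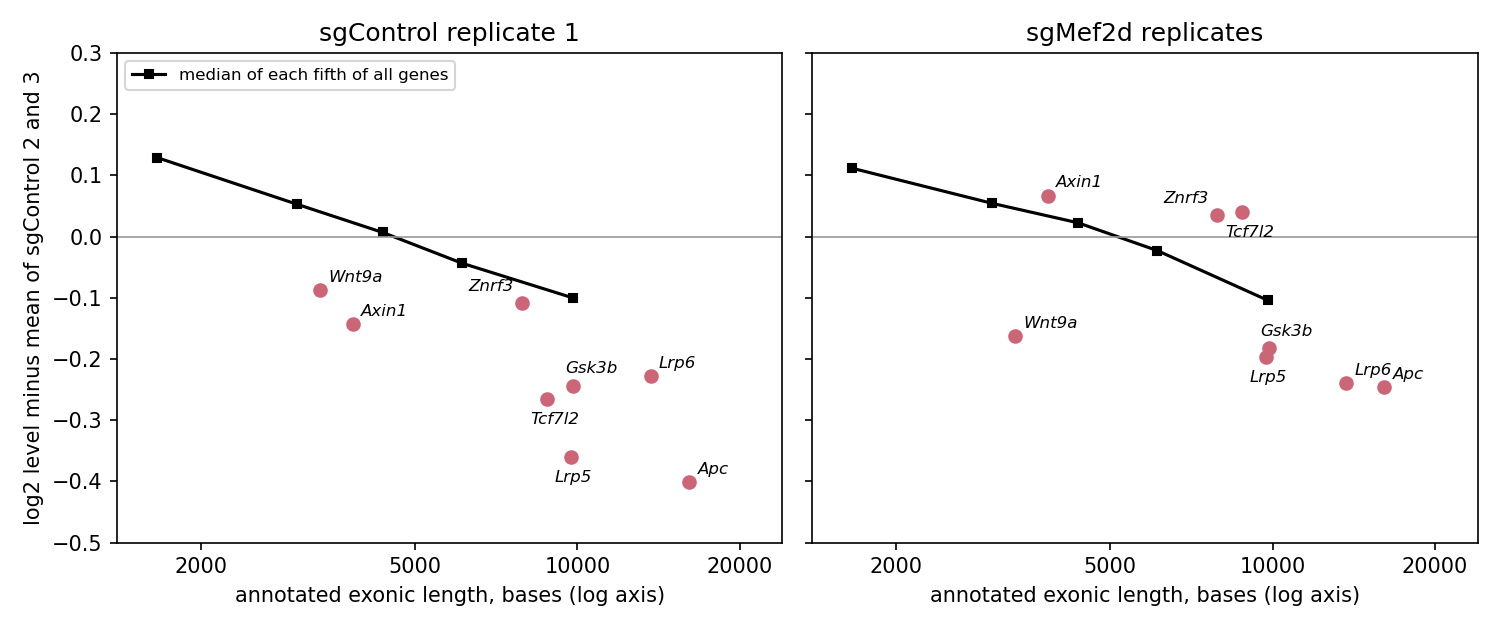
Level in sgControl replicate 1 (left) and in the mean of the sgMef2d replicates (right), as log2 difference from the mean of sgControl replicates 2 and 3, against annotated exonic length in bases (log axis). Red points are the members without Axin2, whose counts are low, and black squares are the medians of 5 groups of all genes by length, which decline from 0.13 to -0.10 on the left and from 0.11 to -0.10 on the right.

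**Figure D4:**
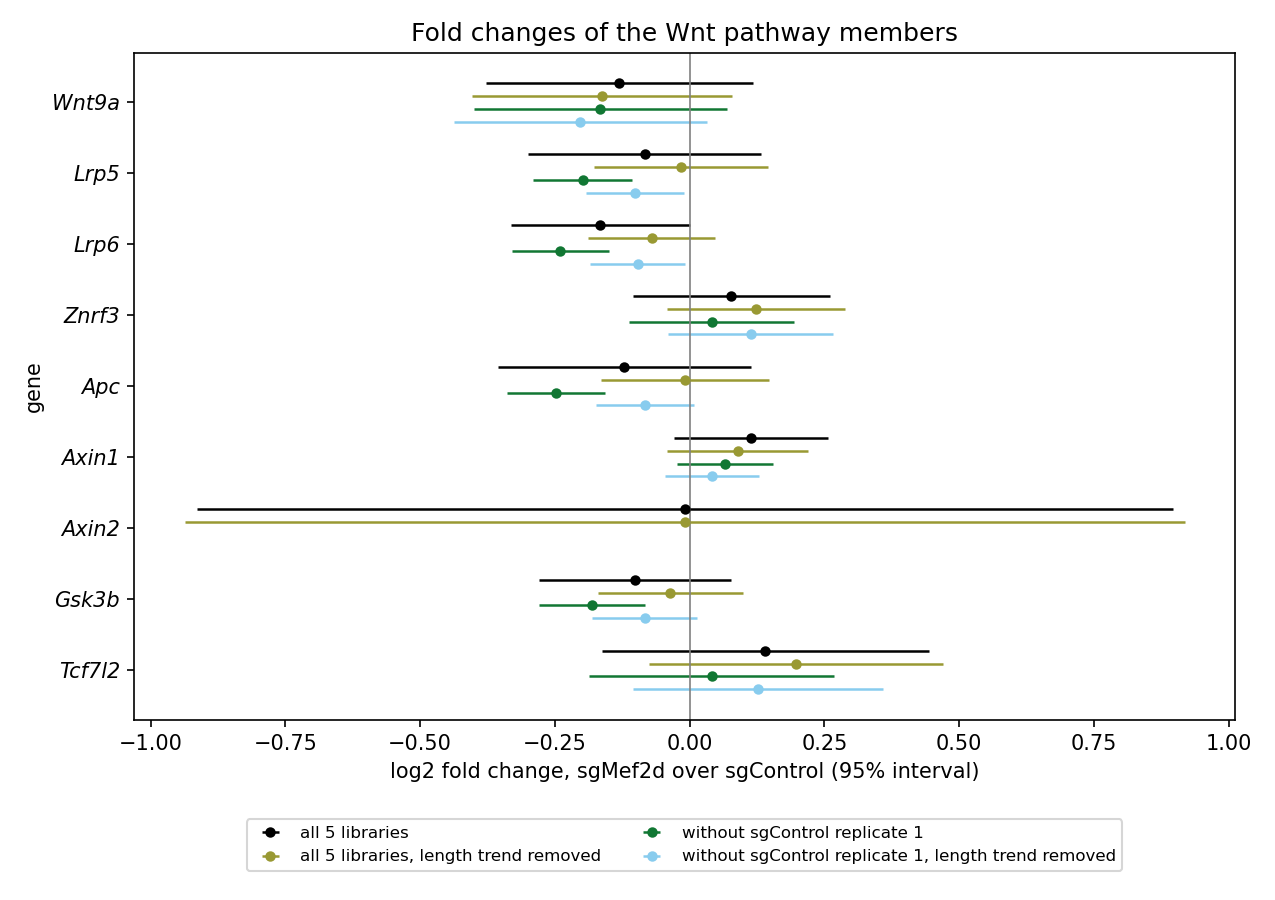
Log2 fold change of each member (points) with its 95% interval (bars), for all 5 libraries, with the length trend removed, without sgControl replicate 1, and with both. Without sgControl replicate 1 the intervals of Lrp5, Lrp6, Apc and Gsk3b lie below 0, with the length trend removed as well those of Lrp5 and Lrp6 still do although neither passed the adjusted threshold, and Axin2 has no value in the comparisons without that library.

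The other genes of the pathway were taken from 10 lists by role, 130 genes in all, of which 84 were tested and 46 had no entry. The lists were chosen with earlier results of these data known, so their shares are descriptions and cannot show an excess over all genes. Of the 84, 15 (17.9%) passed the threshold, 7 higher and 8 lower in sgMef2d, beside 7.95% of all genes, and the median log2 fold change was -0.02. This count was 2 to 41 when single libraries were left out, being lowest without sgMef2d replicate 2 and highest without sgControl replicate 1. Without sgMef2d replicate 2 all of the 15 but Ccn5 and Fosl1 lost their call, and without sgMef2d replicate 1 all but Ccn5, Fosl1 and Dact2 did.

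Of the other Wnt ligands, 5 of 19 were listed. Wnt7b was the most abundant of these per length, with 67.1 CPM per kb in sgControl, followed by Wnt10a (23.3) and Wnt7a (21.2), all above the 4.67 CPM per kb of Wnt9a, while Wnt5a (2.03) and Wnt11 (0.476) were below it. Wnt7a fell from 66.0, 66.4 and 69.4 CPM in sgControl to 58.0 and 50.03 CPM in sgMef2d (log2 fold change -0.31, adjusted p = 0.0291), a call lost when any library but sgControl replicate 1 was left out (adjusted p = 0.0598 to 0.390). Wnt11, a ligand best known for planar polarity signaling, fell from 2.15, 1.56 and 2.20 CPM to 0.647 and 0.943 CPM (-1.33, adjusted p = 0.0349), a call that DESeq2 did not make (adjusted p = 0.0850). In both genes the groups did not overlap. Wls, the carrier that takes Wnt proteins to the cell surface, fell from 156, 160 and 153 CPM to 136 and 134 CPM (-0.21, adjusted p = 0.0448), and did not pass once the length trend was removed (adjusted p = 0.111), by DESeq2 (0.0826), with upper quartile scaling (0.0530) or with the replicate block (0.0634).

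Of the receptors and co-receptors other than Lrp5 and Lrp6, 13 of 17 were tested. Among these 2 rose and 1 fell, where 3.67% of all genes passed as higher and 4.28% as lower. Fzd7, a Frizzled receptor, rose from 23.99, 28.4 and 25.4 CPM to 35.5 and 34.6 CPM (log2 fold change 0.44, adjusted p = 0.0112). Lgr4, an R-spondin receptor that protects Frizzled from ZNRF3, rose from 12.4, 15.1 and 16.2 CPM to 22.7 and 20.3 CPM (0.58, adjusted p = 0.0140). Fzd5 fell from 22.2, 23.2 and 25.3 CPM to 16.9 and 15.8 CPM (-0.52, adjusted p = 0.00764), and 17.8% of its exonic bases lie opposite Gm38058. All 3 calls were lost when either sgMef2d library was left out (adjusted p = 0.0713 to 0.191), and the other 10 receptors tested did not pass.

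Of the extracellular inhibitors 1 of the 4 tested passed, and of the receptor turnover and feedback genes 1 of 4, beside 7.95% of all genes. Notum, a secreted enzyme that removes the lipid of Wnt proteins, rose from 2.24, 1.70 and 1.17 CPM to 3.47 and 4.11 CPM (log2 fold change 1.08, adjusted p = 0.0267), and Dact2, a Dishevelled-binding antagonist, rose from 20.8, 20.1 and 20.4 CPM to 26.6 and 29.97 CPM (0.47, adjusted p = 0.00807). Both were above all sgControl libraries in both sgMef2d libraries. Notum is at a low level and shares 29.4% of its exonic bases with an antisense gene. The other ligase of the Znrf3 type, Rnf43, had 2.27 ± 0.440 CPM (SD, n = 3) and 1.49 ± 0.302 CPM (SD, n = 2) and did not pass (adjusted p = 0.213).

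Gsk3a, the sister kinase of Gsk3b, rose from 111, 114 and 113 CPM to 132 and 140 CPM (log2 fold change 0.27, adjusted p = 0.0163), while the value of Gsk3b was -0.10. The difference between both kinases was not tested. Of Gsk3a, 28.3% of the exonic bases lie opposite the antisense gene 9130221H12Rik, which had 4.63 to 7.48 CPM in the 5 libraries. Of the destruction complex and β-catenin turnover list, 0 of 7 passed, beside 7.95% of all genes. Ctnnb1, which encodes β-catenin, had the smallest p of the list, with 889 ± 5.53 CPM (SD, n = 3) and 815 ± 14.1 CPM (SD, n = 2) and an adjusted p of 0.204 in edgeR's test. Without sgControl replicate 1 Ctnnb1 passed as lower (log2 fold change -0.13, adjusted p = 0.00162), and it still did with the length trend removed as well (-0.12, adjusted p = 0.00275).

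Of the nuclear factors, 1 of the 16 tested passed, beside 7.95% of all genes. Tle2, a corepressor of TCF/LEF factors, fell from 5.36, 5.67 and 5.06 CPM to 3.41 and 3.50 CPM (log2 fold change -0.63, adjusted p = 0.0442), a call that DESeq2 (adjusted p = 0.158) and limma-voom (adjusted p = 0.0605) did not make. Lef1 had no entry, and Tcf7 had 5.14 ± 0.305 CPM (SD, n = 3) and 7.19 ± 1.31 CPM (SD, n = 2), which did not pass (adjusted p = 0.0915).

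Of 23 target genes of the pathway other than Axin2 and Znrf3, 15 were tested. Among these 3 rose and 1 fell, where 3.67% of all genes passed as higher and 4.28% as lower. Sp5, Ascl2, Lgr5, Nkd1, Dkk1, Lef1, Tnfrsf19 and Mmp7 had no entry. The targets that rose were Notum, Fosl1, an AP-1 subunit, and Myc. Fosl1 rose from 60.8, 64.1 and 61.1 CPM to 83.7 and 85.7 CPM (log2 fold change 0.45, adjusted p = 0.00125), and Myc from 180, 191.3 and 191.3 CPM to 237 and 225 CPM (0.30, adjusted p = 0.00885). Fosl1 shares 57.2% of its exonic bases with Ccdc85b on the other strand, which differed by -0.19 on the log2 scale (adjusted p = 0.231). Ccn5, a matricellular protein gene, fell from 48.8, 42.3 and 46.0 CPM to 22.2 and 23.8 CPM (-0.99, adjusted p = 5.89e-05). Ccnd1 had 750 ± 11.97 CPM (SD, n = 3) and 725 ± 23.0 CPM (SD, n = 2) and did not pass (adjusted p = 0.657). 

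Of the planar polarity branch, a β-catenin-independent arm of Wnt signaling, 9 of 11 genes were tested. Among these 0 rose and 2 fell, where 3.67% of all genes passed as higher and 4.28% as lower. Daam2, a formin that binds Dishevelled, fell from 12.4, 17.5 and 16.5 CPM to 9.53 and 9.56 CPM (log2 fold change -0.68, adjusted p = 0.0222). Without sgControl replicate 2 its value was -0.58 and did not pass edgeR's test (adjusted p = 0.0646). Prickle1, a core polarity protein gene, fell from 14.6, 15.2 and 16.3 CPM to 9.95 and 12.5 CPM (-0.45, adjusted p = 0.0486), a call that limma-voom (adjusted p = 0.0522), DESeq2 (adjusted p = 0.0903) and upper quartile scaling (adjusted p = 0.0531) did not make. The value of Prickle1 was -0.29 without sgMef2d replicate 1 (adjusted p = 0.421) and -0.63 without sgMef2d replicate 2 (adjusted p = 0.0806).

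**Figure D5:**
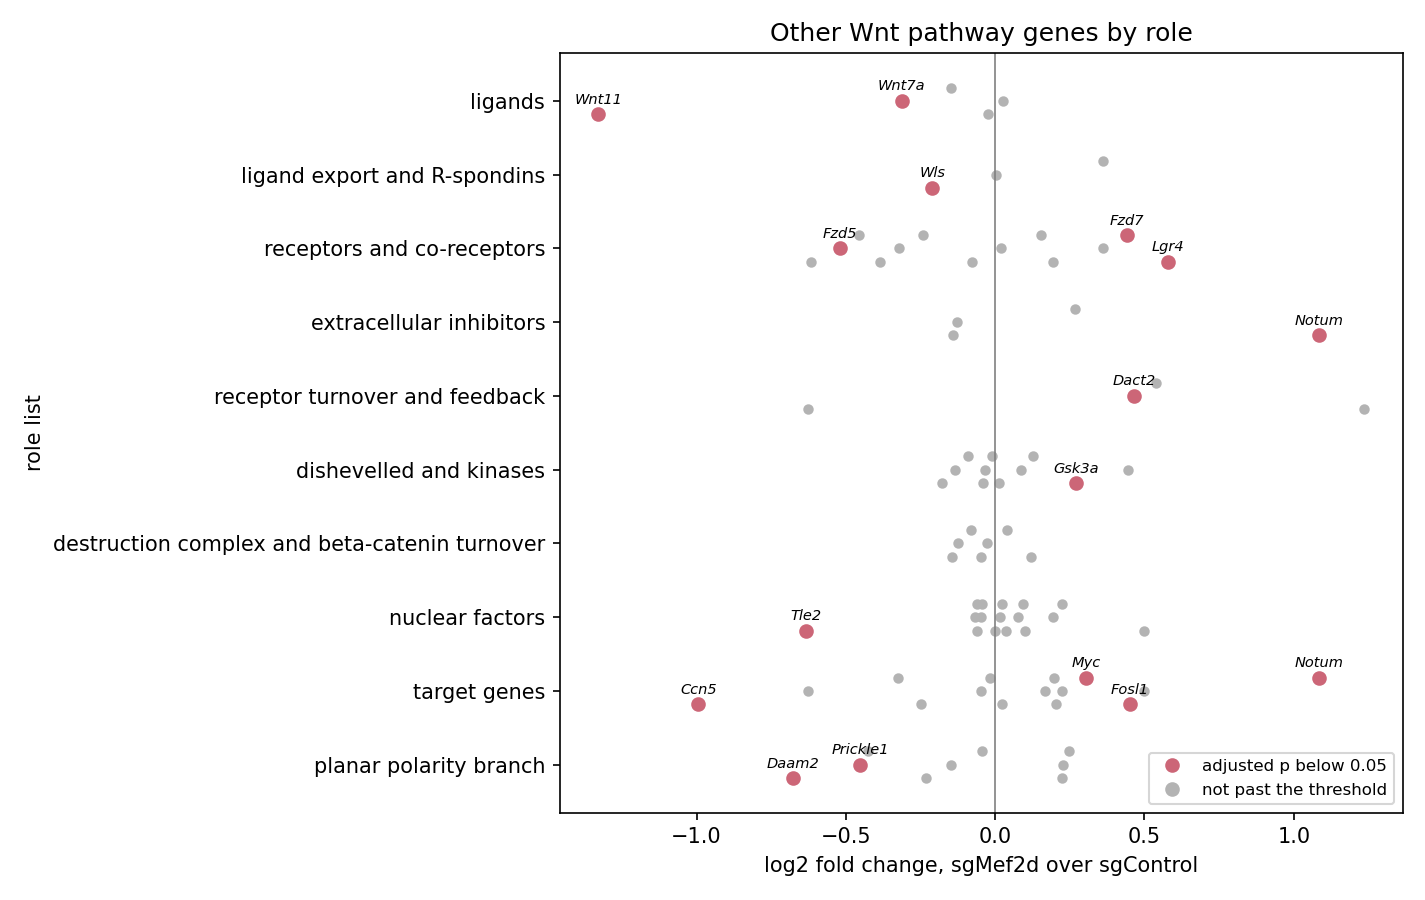
Log2 fold change of each of the 84 other Wnt pathway genes tested, by role, with the genes past an adjusted p of 0.05 in red and named and genes of several lists drawn in each. Genes past the threshold lie on both sides of 0 in the lists of receptors and of targets. Of the destruction complex list 0 of 7 passed, beside 7.95% of all genes tested.

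Of the 15 genes that passed, those with a promoter window had 14 windows, of which 2 (14.3%) held the TCF/LEF motif (Gsk3a and Wnt11) and 1 (7.14%) the MEF2 motif (Dact2). Over all other pathway genes tested, these 15 included, 2 of 71 windows (2.82%) held the TCF/LEF motif and 1 (1.41%) the MEF2 motif, both shares below those of all promoters. The bases upstream of these 3 starts are shown, 5′ to 3′ on the strand of the gene, because they carry the matches, with the matched letters in capitals. The match lies 158 bases before the start in Gsk3a and 51 bases before it in Wnt11, both on the other strand, and 188 bases before it in Dact2. A match of letters is not evidence of binding, and Gsk3a rose while Wnt11 fell.
Gsk3a, chr7:25237852-25238101, minus strand: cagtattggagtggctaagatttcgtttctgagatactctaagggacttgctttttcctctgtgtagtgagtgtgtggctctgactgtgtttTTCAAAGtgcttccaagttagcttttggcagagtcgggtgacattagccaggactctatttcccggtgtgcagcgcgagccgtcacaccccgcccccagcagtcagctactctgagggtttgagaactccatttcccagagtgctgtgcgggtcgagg
Wnt11, chr7:98834862-98835111, plus strand: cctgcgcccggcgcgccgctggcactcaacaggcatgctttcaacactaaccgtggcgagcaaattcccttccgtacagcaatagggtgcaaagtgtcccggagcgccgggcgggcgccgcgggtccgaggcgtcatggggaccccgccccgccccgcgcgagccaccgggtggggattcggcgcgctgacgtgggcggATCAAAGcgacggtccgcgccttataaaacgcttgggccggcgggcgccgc
Dact2, chr17:14203832-14204081, minus strand: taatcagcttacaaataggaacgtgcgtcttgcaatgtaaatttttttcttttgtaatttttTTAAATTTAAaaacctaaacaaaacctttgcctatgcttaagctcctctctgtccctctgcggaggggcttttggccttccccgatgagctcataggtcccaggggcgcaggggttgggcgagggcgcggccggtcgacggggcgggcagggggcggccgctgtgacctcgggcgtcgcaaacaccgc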

How the data were processed

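Per the methods, read quality was checked with FASTQC and RSeQC and reads were aligned by STAR2 to GRCm38. The methods name a filter on low counts for the ranked genes of the gene set analysis. They do not say whether the deposited raw counts per gene were filtered. The submitters' processing notes also name CASAVA and Subread, the strand setting of the counting is not given in the sources used here, and the methods give GENCODE version 22. The identifiers of all 12934 entries matched GENCODE M21, which gave symbols, positions and exonic lengths, and every entry reached at least 11 counts in a library.

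Here CPM scaled by TMM came from edgeR 4.0.16 (R 4.3.3), as did the bias-adjusted quasi-likelihood test over the 12483 genes kept by its expression filter, with Benjamini-Hochberg adjustment over all of them and a threshold of 0.05. Standard errors are the log2 fold change divided by the square root of F. Intervals use the fitted degrees of freedom, and they and the limit of 3 counts (0.146 to 0.221 CPM) cover counting and replicate error only. The methods say in general that experiments were repeated independently, but no source says which libraries are separate cultures, so the p-values measure the spread between these libraries, which may be technical. Levels per kb are CPM over annotated exonic length. Paralog ratios used a pseudocount of 0.5 and exact permutation tests (scipy 1.17.1), and the ratio of Tcf7l2 to Tcf7l1 could not be formed.

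The members and lists were chosen with earlier results of these data known. Named genes were the members, Mef2d, every other pathway gene past the threshold, and in a list with none the gene with the smallest p. Rnf43, Tcf7, Ccnd1 and the ligands below the threshold were added after their values were seen. Alternatives were other scalings, DESeq2 1.42.0, limma-voom (limma 3.58.1), the legacy test, no filter, removal of the loess trend with exonic length (span 0.3), a block on replicate number, a ratio pseudocount of 2, and each library left out in turn. The sequences are from RefSeq (GRCm38.p6).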

Additional observations from a re-analysis of the deposited data

How the results depend on the processing

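Over the other scalings, DESeq2, limma-voom, the legacy test, no filter and the length trend removed, 0 of the 9 members passed the threshold and all kept their sign. With each library omitted in turn, the log2 fold change ranged from -0.20 to -0.0080 for Lrp5, -0.24 to -0.12 for Lrp6, -0.25 to -0.0326 for Apc and -0.18 to -0.0489 for Gsk3b, the lowest value of each being that without sgControl replicate 1, where these 4 passed. It ranged from -0.26 (without sgMef2d replicate 2) to -0.0135 (without sgMef2d replicate 1) for Wnt9a, from 0.07 to 0.16 for Axin1, from -0.0176 to 0.15 for Znrf3, which turned without sgMef2d replicate 1, and from -0.03 to 0.0856 for Axin2 and -0.0689 to 0.32 for Tcf7l2, which both turned without sgMef2d replicate 2. Axin2 failed the expression filter without sgControl replicate 1 or sgMef2d replicate 1 and gave no value there. The count of all genes past the threshold, 992, ranged from 234 to 3639 and that of the other pathway genes, 15, from 2 to 41 over the same omissions: 3639 and 41 without sgControl replicate 1, 603 and 8 without sgControl replicate 2, 812 and 9 without sgControl replicate 3, 238 and 3 without sgMef2d replicate 1, and 234 and 2 without sgMef2d replicate 2. Without sgControl replicate 1 and with the length trend removed, the counts were 2914 and 30. The cause of these differences was not tested. With 1 sgMef2d library left, that library is assumed to vary like the others.

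No source says whether same-numbered libraries share a batch, and the deviations of same-numbered libraries had correlations of 0.011 and -0.001. With the replicate block the count over all genes was 1254, that of the other pathway genes was 23, and 0 members passed. Of the 15 named pathway genes, Ccn5 and Fosl1 kept their call in all 15 alternatives, and the other 13 lost it in 1 to 8 of them, none changing direction. Counts near 10, as for Axin2, limit what can be seen.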
